A study of Oryza sativa with 9 samples.

Results

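The non-symbiotic haemoglobins of rice (Oryza sativa) were examined in leaf RNA as a gene family, taken as every probe set whose single listed gene carries the symbol or synonym NSHB plus a number. The rule found 4 probe sets of 2 genes, NSHB2 with 1 probe set and NSHB1 with 3, among 17905 genes that have a probe set listing only them. The reference gene table holds 4 such genes, and no probe set lists NSHB3 or NSHB4 as its single gene, so those genes have no value here. NSHB2 was chosen on its measured difference between the arrays labelled OE and WT. Its values in that contrast, and its OE minus RNAi difference, which uses the same OE arrays, are therefore given as a description with no test.

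The data are 9 Affymetrix rice arrays, 3 from each of 3 groups of 21-day-old seedlings grown under normal conditions in liquid culture in the japonica background Zhonghua11. WT was the untransformed background. OE plants carried the full-length cDNA of OsHMGB707, a high mobility group box protein, behind the CaMV35S promoter in pCAMBIA1323, and RNAi plants carried a segment of the same gene in pTCK303, which is driven by a ubiquitin promoter. Each array was a pool of seedlings. The transgenic line behind the pools is not named in the labels, so the 3 pools of a group may descend from a single transformed plant, and no plants with an empty vector were measured. Both promoters act in most tissues, and both transgenic groups had passed through hygromycin selection, which WT had not.

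Non-symbiotic haemoglobins are small haem proteins found throughout plants, including plants that form no nodules. They bind oxygen so tightly that they are not thought to carry it, and the oxygenated form turns nitric oxide into nitrate. The oxidised haem iron is then returned to its reduced form by reductases, for which monodehydroascorbate reductase is a known candidate. Their genes are known to respond to low oxygen, to nitrate and nitric oxide, and in rice NSHB2 also to cytokinin. They are therefore usually discussed with ethanolic fermentation, nitrate assimilation and the ascorbate cycle.

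The targeted gene was checked first. The brighter OsHMGB707 probe set (LOC4336676 in the reference) read 12.39, 12.38 and 12.38 on the WT arrays, 12.25, 12.28 and 12.37 on the arrays labelled OE, and 10.31, 10.43 and 10.03 on the RNAi arrays, on the log2 scale of the deposited values. RNAi lay below WT by a difference of -2.13 (limma adjusted p = 3.85e-06), while OE differed from WT by -0.09 (adjusted p = 0.703). A second, dimmer probe set gave differences of -0.44 for RNAi (adjusted p = 0.286) and -0.27 for OE (adjusted p = 0.419). The fall in RNAi is as the label says, whereas no rise was measured on the arrays labelled OE. By quantitative PCR the paper reported more OsHMGB707 in several overexpression lines than in WT. Which lines gave the array pools is not named. The place of these probes relative to the cloned cDNA is not known here. OE below always means the arrays labelled OE.

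Across 57194 probe sets, 716 were called higher and 964 lower in OE than in WT at an adjusted p under 0.05, which is 1.25% and 1.69% of those tested. With each array centred on its median the split became 595 higher and 1230 lower, or 32.6% of calls higher in place of 42.6%. For RNAi minus WT 149 were higher and 125 lower (0.261% and 0.219%), and for OE minus RNAi 1796 were higher and 1725 lower (3.14% and 3.02%). At a limma unadjusted p under 0.05 there were 9670 of the 57194 in OE minus WT, 7162 in RNAi minus WT and 12458 in OE minus RNAi. The comparisons share arrays, OE and RNAi being set against the same 3 WT arrays. Leaf markers were bright: 14 of 17 probe sets for Rubisco small subunit, Rubisco activase, light-harvesting and chlorophyll synthesis genes lay above the upper quartile of the array in each group, and their summed log2 level ran from 17.00 to 17.15 over the 9 arrays. That sum was taken before the log2 step, so the brightest probe sets dominate it. The RBCS1 probe set stayed at 3.07 to 3.17. The leaf marker PORA had group means of 10.69 in WT, 10.52 in OE and 9.81 in RNAi. Its RNAi minus WT difference of -0.88 (limma adjusted p = 0.086) was the largest against WT among the markers. The root silicon transporter Lsi1 read 7.94 to 8.17 as a group mean, Lsi2 4.22 to 4.37, and the anther genes RTS, TDR, C6 and CP1 no more than 5.15, below the median of the array. The CP1 pattern of the anther list also matched a cystatin gene, which read 13.62 to 13.72 as a group mean at 1 probe set and 3.35 to 3.50 at the other. limma called no marker probe set in any comparison, with 0 to 4 of each list at an unadjusted p under 0.05, and the part of other cell types in the results below was not tested.

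NSHB2, on chromosome 3, stood near the middle of the leaf array in WT and well above it in OE. Its log2 level was 6.21, 6.10 and 5.78 in WT, 7.68, 8.08 and 7.45 in OE, and 6.15, 6.42 and 6.91 in RNAi. Every OE array read higher than every WT and every RNAi array, whereas RNAi and WT overlapped, since RNAi replicate 1 lay below WT replicate 1. In bulk leaf RNA, fewer cells of a type and less RNA per cell cannot be told apart.

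The means were 6.03 ± 0.22 (SD, n = 3) in WT, 7.74 ± 0.32 (SD, n = 3) in OE and 6.49 ± 0.39 (SD, n = 3) in RNAi. OE exceeded WT by 1.71 on the log2 scale (SE 0.21), a 3.27-fold difference in level, and exceeded RNAi by 1.24 (SE 0.21), or 2.37-fold. The first of these sizes is that of the contrast that chose the gene, and the second uses the same OE arrays. Both may therefore be overstated by the choice, and their SE does not allow for it. In rank on the array, NSHB2 exceeded 48.5% to 54.1% of probe sets on the WT arrays, 67.2% to 73.2% on the OE arrays and 52.8% to 61.9% on the RNAi arrays.

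The choice of the gene used the WT arrays but not the RNAi arrays. WT values low by chance would favour that choice and also raise RNAi minus WT. The RNAi minus WT difference was 0.47 (SE 0.21, 95% interval -0.003 to 0.93). It did not pass the test (limma unadjusted p = 0.0512, adjusted p = 0.402). The interval reaches from about no difference to a rise of 0.93, so a rise in RNAi was neither shown nor excluded with 3 arrays a group. RNAi replicate 3, at 6.91, was the closest of the RNAi arrays to the OE range, and RNAi replicate 1, at 6.15, lay inside the WT range.

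NSHB2 also varied more between replicates than most of the array. Its SD exceeded that of 93.8% of probe sets in WT, 96.8% in OE and 96.8% in RNAi, where the root mean square SD over all probe sets was 0.13, 0.15 and 0.18. The pooled SD of NSHB2 within groups was 0.317.

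**Figure D1:**
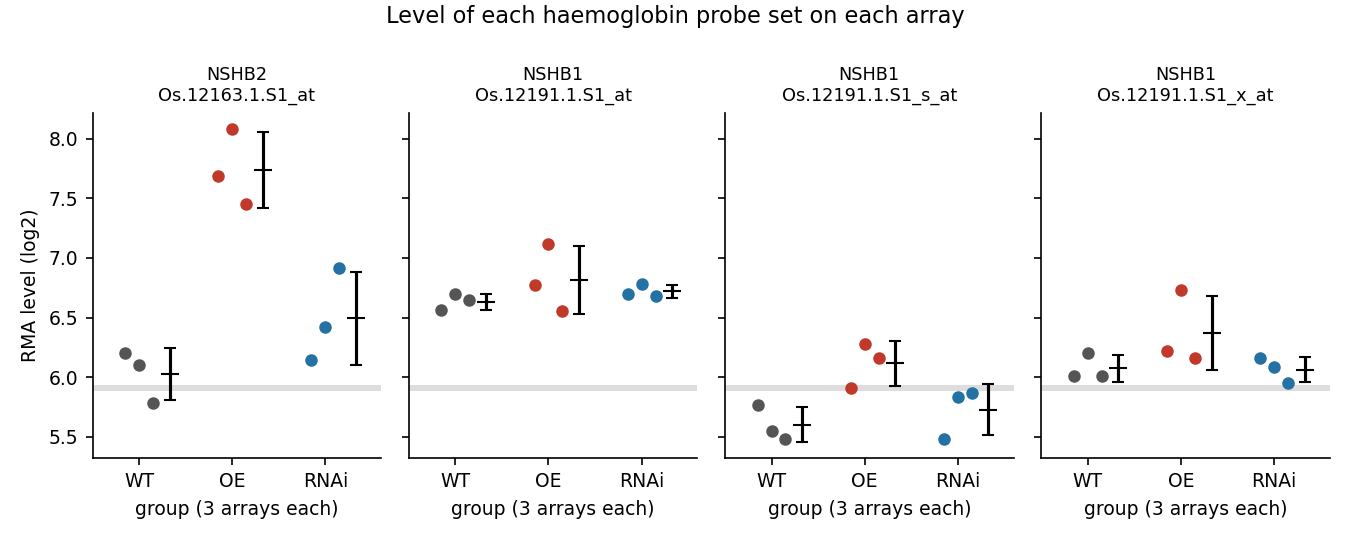
RMA level (log2) of the NSHB2 probe set and the 3 NSHB1 probe sets on each array, by group; points are single arrays, the black bar is the mean with its SD over 3 arrays, and the grey band is the range of the 9 array medians (5.89 to 5.94). NSHB2 on the OE arrays (7.45 to 8.08) sits above all other arrays, and the NSHB1 probe sets spread over less than NSHB2.

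NSHB1, the other measured member of the family, lies 51 genes along the same chromosome, with NSHB3 and NSHB4 as the next genes after it. Its 3 probe sets carry suffixes that Affymetrix gives to unique probe sets (_at), to those that match several transcripts (_s_at) and to those with probes that may cross-hybridise (_x_at), so the last pair may also read the neighbouring copies. None of the 3 reached the OE level of NSHB2, although levels of different probe sets cannot be compared directly. None was called in OE minus WT, beside 1.25% of all probe sets called higher, and since this contrast chose the family nothing is read from that count. The _s_at set was called with array weights and without RNAi replicate 1.

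The unique NSHB1 probe set read 6.56, 6.69 and 6.64 in WT, 6.77, 7.12 and 6.56 in OE, and 6.69, 6.78 and 6.68 in RNAi. All 3 groups overlapped. OE minus WT was 0.18 (SE 0.12), RNAi minus WT 0.09 (95% interval -0.19 to 0.36, adjusted p = 0.821) and OE minus RNAi 0.10 (adjusted p = 0.699). The last of these turned to -0.057 without OE replicate 2, the highest array.

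The _s_at probe set followed NSHB2 most closely. It read 5.77, 5.55 and 5.49 in WT, 5.91, 6.28 and 6.16 in OE, and 5.48, 5.83 and 5.87 in RNAi, so that the OE arrays overlapped neither WT nor RNAi. OE minus WT was 0.52 (SE 0.13, 1.43-fold), RNAi minus WT 0.13 (95% interval -0.16 to 0.42, adjusted p = 0.741) and OE minus RNAi 0.39 (adjusted p = 0.116).

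The _x_at probe set read 6.01, 6.21 and 6.01 in WT, 6.22, 6.73 and 6.16 in OE, and 6.16, 6.08 and 5.95 in RNAi. OE replicate 2 was its highest array, as it was for NSHB2 and for the other NSHB1 probe sets. OE minus WT was 0.29 (SE 0.14), OE minus RNAi 0.31 (adjusted p = 0.238) and RNAi minus WT -0.01 (95% interval -0.33 to 0.30, adjusted p = 0.980), with a sign that depends on which array is left out. Over the 9 arrays, which fall into 3 groups and are not 9 independent conditions, Pearson's r with NSHB2 was 0.57 for the unique probe set, 0.91 for the _s_at set and 0.67 for the _x_at set, with Spearman's rho of 0.36, 0.93 and 0.44.

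In RNAi minus WT, none of the 4 haemoglobin probe sets was called by limma, beside 0.261% of all probe sets called higher and 0.219% called lower. None had an unadjusted p under 0.05, beside 7162 of all 57194 probe sets.

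Genes of the processes in which the haemoglobins are discussed were gathered in 8 lists of 102 measured genes and 129 probe sets. In OE minus WT 4 were higher and 2 lower, or 3.10% and 1.55% of the probe sets beside 1.25% and 1.69% of all those tested. In OE minus RNAi 7 were higher and 2 lower, or 5.43% and 1.55% beside 3.14% and 3.02%. In RNAi minus WT none was called by limma, and 3 were called when arrays were weighted by quality. At an unadjusted p under 0.05 there were 17 of the 129, beside 7162 of all 57194 probe sets. The count of calls for OE minus WT changed as single arrays were left out, and the cause was not tested. It was 1 without WT replicate 3 or OE replicate 1, and 2 without WT replicate 1 or 2. Without OE replicate 3 or RNAi replicate 2 it was 3. For OE minus RNAi it was 3 without OE replicate 1 and 5 without RNAi replicate 2.

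Of the 5 fermentation probe sets, 1 was higher in OE. Adh2, an alcohol dehydrogenase that reduces acetaldehyde to ethanol, read 5.41, 5.45 and 5.46 in WT, 6.16, 6.81 and 6.48 in OE, and 5.56, 5.75 and 5.80 in RNAi. The OE arrays lay above all others, and OE replicate 2 was the highest array, as for NSHB2. Adh2 rose by 1.04 in OE over WT (SE 0.14, limma adjusted p = 0.00432) and was higher in OE than in RNAi by 0.78 (adjusted p = 0.011), while RNAi minus WT was 0.27 (adjusted p = 0.473). Both calls stood whichever array was left out, and both were lost without moderation of the spread (adjusted p = 0.0514 and 0.0711). The Adh2 probe set is dim, and the filter on low means leaves it out. Pyruvate decarboxylase, the enzyme before it, was measured by 4 probe sets of 3 genes, with OE minus WT from 0.03 to 0.30 and no call. The median over the fermentation list was 0.17, beside 0.02 over all probe sets.

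Low-oxygen regulators and the alternative route of respiration gave no call against WT. Of 4 probe sets for the group VII ERF and submergence list, EREBP-1, an ethylene response factor, gave -0.02 and -0.05 in OE minus WT. The genes matched by the names OsSK1 and OsSK2, symbols that are also used for unrelated genes, gave 0.20 (adjusted p = 0.148) and -0.39 (adjusted p = 0.0857). OsSK1 was called in OE minus RNAi, at 0.39 (adjusted p = 0.00866). AOX1, an alternative oxidase of the mitochondrial electron chain, gave -0.30 in OE minus WT (adjusted p = 0.211) and -0.42 in RNAi minus WT (adjusted p = 0.166).

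Nitrate uptake and reduction held 3 of the 6 calls of OE minus WT, among 17 probe sets of 13 genes with a median of 0.15 beside 0.02 over all probe sets. NIA1, a nitrate reductase, read 11.92, 11.90 and 12.03 in WT, 12.53, 12.36 and 12.26 in OE, and 11.77, 11.91 and 12.01 in RNAi. It was higher in OE by 0.43 (adjusted p = 0.0353), and its second, dimmer probe set gave -0.04. GLN2, a glutamine synthetase that takes up the ammonium formed from nitrate, was higher by 0.32 (adjusted p = 0.0428), from 12.79 to 12.89 in WT and 13.05 to 13.23 in OE, with 0.25 at its second probe set.

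NAR2.2, a partner protein of high-affinity nitrate transporters, moved the other way. It read 8.43, 8.97 and 8.96 in WT, 7.85, 7.39 and 8.28 in OE, and 8.90, 8.89 and 8.86 in RNAi. It fell in OE by 0.94 against WT (adjusted p = 0.044) and by 1.04 against RNAi (adjusted p = 0.0184). NIA1 and GLN2 were likewise higher in OE than in RNAi, by 0.48 (adjusted p = 0.0135) and 0.33 (adjusted p = 0.0247), where their second probe sets gave 0.14 (adjusted p = 0.458) and 0.03 (adjusted p = 0.939). These calls against WT were lost without several of the single arrays, RNAi arrays among them, and the cause was not tested. Over all alternatives the differences stayed at 0.36 to 0.49 for NIA1, 0.28 to 0.37 for GLN2 and -1.17 to -0.72 for NAR2.2. When each of the 9 arrays was left out in turn, NIA1 stayed called in the absence of OE replicate 3, RNAi replicate 1 or RNAi replicate 3 and lost its call in the other cases (adjusted p up to 0.139). GLN2 stayed called when OE replicate 2 or RNAi replicate 3 was dropped and in no other case (adjusted p up to 0.159), and NAR2.2 when WT replicate 1 or OE replicate 3 was dropped and in no other case (adjusted p up to 0.174). All 3 calls were also lost with the replicate number as a block and without moderation of the spread. Those of GLN2 and NAR2.2 were lost with only the 2 groups compared. Median centring ended the GLN2 call, and trend and robust moderation that of NAR2.2. Against RNAi, all 3 calls were lost without OE replicate 1, those of NAR2.2 and GLN2 also without RNAi replicate 2, and that of GLN2 also without OE replicate 3 or RNAi replicate 3. The NIA1 and NAR2.2 calls were lost without moderation, and that of GLN2 with the block or only the 2 groups compared.

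Among 13 probe sets of 10 genes for ascorbate and methaemoglobin reduction, none was called by limma in any comparison. At an unadjusted p under 0.05 there were 5 in OE minus WT, 2 in RNAi minus WT and 6 in OE minus RNAi. Over all 57194 probe sets these counts were 9670, 7162 and 12458. The monodehydroascorbate reductases MDAR2 and MDAR5 gave OE minus WT differences of 0.14 (adjusted p = 0.445) and 0.09 (adjusted p = 0.569). The smallest p values in OE minus WT belonged to the ascorbate peroxidases APX8, at 0.28 (adjusted p = 0.119), and APX1, at -0.27 (adjusted p = 0.179).

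Haem and tetrapyrrole synthesis, which supplies the prosthetic group, had no limma call in OE minus WT over 14 probe sets of 12 genes. There were 2 at an unadjusted p under 0.05, beside 9670 of all 57194 probe sets. In OE minus RNAi HEMD, uroporphyrinogen III synthase, was higher by 0.36 (adjusted p = 0.0208), and 1 of the probe sets of GSA, glutamate-1-semialdehyde aminotransferase, by 0.55 (adjusted p = 0.00733), the other giving 0.13. The HEMD call was lost without OE replicate 1 or 3 or RNAi replicate 2 or 3, and with only the 2 groups compared (adjusted p up to 0.0695). For that GSA probe set the RNAi arrays, at 5.55, 5.45 and 5.76, lay below WT, at 5.92, 5.96 and 6.06, and RNAi minus WT was -0.39 (adjusted p = 0.116).

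Of 37 cytokinin probe sets, 1 was called in OE minus WT. LOGL9, of the LOG family that releases active cytokinin from its nucleotide, read 10.64, 10.65 and 10.69 in WT, 10.36, 10.37 and 10.33 in OE, and 10.41, 10.52 and 10.53 in RNAi. It fell by 0.31 in OE (adjusted p = 0.0258), and RNAi minus WT was -0.18 (adjusted p = 0.281). The OE call was lost without any single WT or OE array and with the replicate number as a block (adjusted p up to 0.118). The median over the list was 0.01 in OE minus WT.

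Sucrose and starch use gave 1 call among 38 probe sets of 27 genes in OE minus WT. A hexokinase gene with the synonyms HXK4 and HXK8 (LOC4326776) read 6.22, 6.35 and 6.11 in WT and 6.73, 6.68 and 6.77 in OE, a rise of 0.50 (adjusted p = 0.0189), and was higher in OE than in RNAi by 0.39 (adjusted p = 0.0363). Another gene that carries the synonym HXK4 (LOC4342654) gave -0.11 in OE minus WT (adjusted p = 0.527) and -0.26 in OE minus RNAi (adjusted p = 0.101). For LOC4326776, leaving out replicate 1 or 3 of either WT or OE ended the first call, as did no moderation of the spread (adjusted p up to 0.092). Leaving out any OE array, WT replicate 1 or RNAi replicate 1 or 2 ended the second. So did the replicate block, only the 2 groups compared and no moderation (adjusted p up to 0.106). At 1 of its probe sets OsSUS6, a sucrose synthase, was lower in OE than in RNAi by a difference of -0.93 (adjusted p = 0.0226), with RNAi at 7.57, 7.41 and 7.01 and WT at 7.09, 6.40 and 6.52. Its other, dimmer probe set gave 0.0017 (adjusted p = 0.994). The call ended without replicate 1 or 3 of OE or replicate 1 or 2 of RNAi, and without moderation of the spread (adjusted p up to 0.111).

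**Figure D2:**
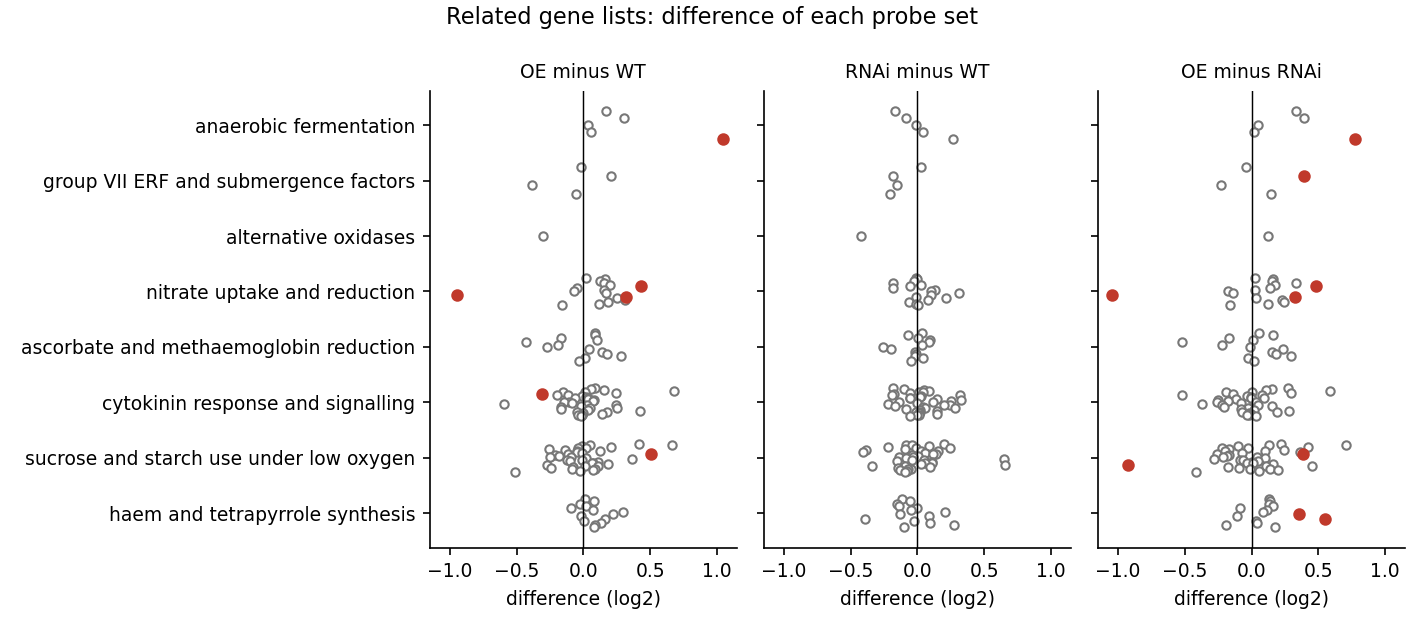
Difference (log2) of each of the 129 probe sets of the 8 related lists in OE minus WT, RNAi minus WT and OE minus RNAi; filled points have a limma adjusted p under 0.05 over all 57194 probe sets, open points do not. Adh2 at 1.04 and NAR2.2 at -0.94 are the filled points farthest from 0 in OE minus WT, and the RNAi minus WT panel has no filled point.

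The genes beside NSHB2 on chromosome 3 were read next, taking 5 on each side in gene order, of which 7 have 9 probe sets. In OE minus WT 1 was higher and 1 lower, each 11.1% of the 9, beside 1.25% and 1.69% of all probe sets, and in OE minus RNAi 1 was higher and 1 lower, beside 3.14% and 3.02%. In RNAi minus WT limma called none, with 2 at an unadjusted p under 0.05, beside 7162 of all 57194 probe sets. With so few probe sets, 1 call moves the share by 11.1 percentage points. AOS, allene oxide synthase, the enzyme that commits fatty acid hydroperoxides to jasmonate synthesis, is the gene immediately next to NSHB2. It read 10.88, 11.07 and 11.13 in WT, 10.31, 10.28 and 10.02 in OE, and 10.78, 10.77 and 10.86 in RNAi. The OE arrays lay below all others, opposite in sign to NSHB2. AOS fell in OE by 0.83 against WT (SE 0.09, adjusted p = 0.00193) and by 0.60 against RNAi (adjusted p = 0.00624), and both calls stood under all 17 alternatives. Every RNAi array also read below every WT array, and RNAi minus WT was -0.23 (adjusted p = 0.367).

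MTP4, a metal tolerance protein of the cation efflux family, lies 3 genes away on the other side. One of its probe sets read 4.88, 4.77 and 4.78 in WT, 5.48, 5.10 and 5.51 in OE, and 4.67, 4.85 and 4.46 in RNAi. It rose in OE by 0.55 against WT (adjusted p = 0.0472), and by 0.70 against RNAi (adjusted p = 0.0106). The first call was lost in 10 of 16 alternatives (adjusted p up to 0.167). Among them were those without any WT array, without OE replicate 1 or 3 and without RNAi replicate 1 or 2. The second was lost without OE replicate 1 and without moderation of the spread (adjusted p up to 0.066). The other MTP4 probe set gave 0.11 in OE minus WT (adjusted p = 0.594). LOC4332124, next to NSHB2 on that side, gave -0.02 (adjusted p = 0.943), and the remaining probe sets ranged from -0.10 to -0.0042 with no call.

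**Figure D3:**
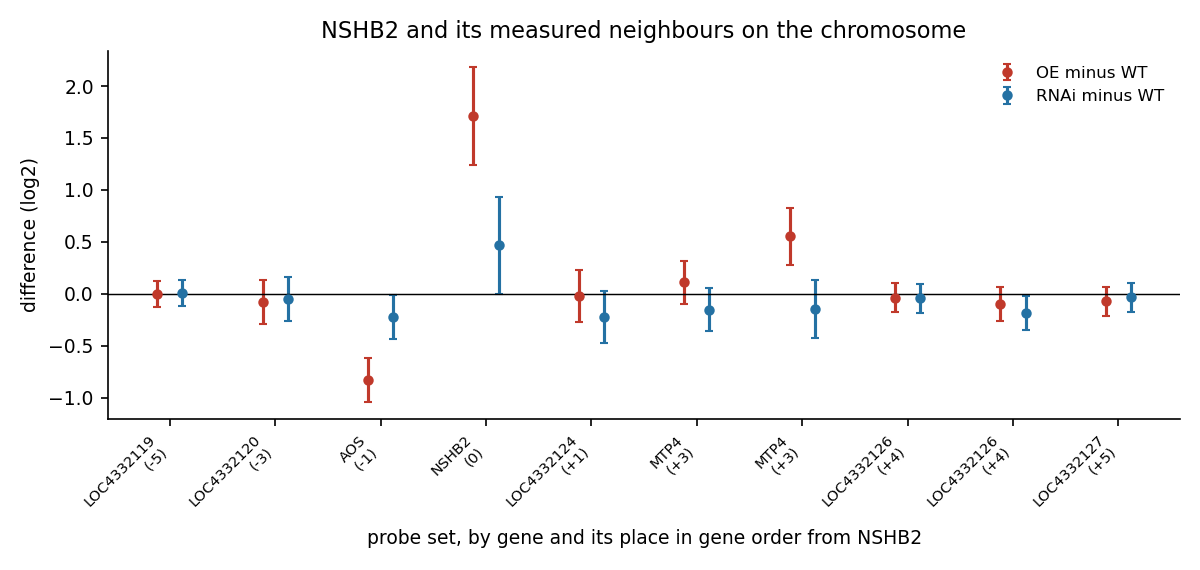
OE minus WT (red) and RNAi minus WT (blue) difference (log2) with its 95% interval for NSHB2 and the measured probe sets of genes up to 5 places away in gene order. NSHB2 at 1.71 stands between AOS at -0.83 and LOC4332124 at -0.02. The NSHB2 interval for OE minus WT does not allow for the choice of the gene on that contrast and is not a test.

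Genes whose pattern over the 9 arrays was most like that of NSHB2 were picked from 321 probe sets with a gene name and a range of at least 1 on the log2 scale. The measure was Pearson's r, given as a description, because the OE rise that chose NSHB2 drives it. The 10 highest had r from 0.88 to 0.96, and the root mean square difference between their WT-centred profile and that of NSHB2 was 0.401 to 0.702. They were FIL1, a YABBY transcription factor (r = 0.96), LOL4, an LSD1-like zinc finger gene (0.95), Adh2 (0.95), HGGT, which makes tocotrienols (0.93), the meiotic recombinase DMC1 (0.92), the metallothionein MT-1-4b (0.92), the floral MADS-box gene Lhs1 (0.89), the RelA/SpoT homologue CRSH2 (0.88), mfs1 (0.88) and ARD1, acireductone dioxygenase of methionine salvage (0.88).

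FIL1 read 8.80, 8.51 and 8.36 in WT, 9.35, 9.81 and 9.28 in OE, and 8.81, 8.82 and 8.87 in RNAi. Like NSHB2 it was highest on OE replicate 2 and lowest on WT replicate 3. Lhs1 had the widest step, from 5.04, 5.44 and 5.08 in WT to 7.66, 7.47 and 7.43 in OE with 5.10, 5.10 and 5.02 in RNAi, but lacked the order within groups seen for NSHB2. ARD1 was nearest in size, at 7.63, 8.02 and 7.95 in WT, 9.84, 9.40 and 9.93 in OE, and 8.21, 8.69 and 8.38 in RNAi. With Spearman's correlation 5 of the 10 genes were shared.

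The 5 named genes most opposite were OsbZIP49, a bZIP factor (r = -0.94), OPR7, a 12-oxophytodienoate reductase of the jasmonate route (-0.93), the small heat shock protein HSP26.2 (-0.93), OsPIDlike (-0.91) and ASMT3 (-0.91). OPR7 read 7.34, 7.54 and 7.50 in WT, 6.85, 6.42 and 7.07 in OE, and 7.38, 7.32 and 7.29 in RNAi. Its lowest array was OE replicate 2, where NSHB2 was highest.

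**Figure D4:**
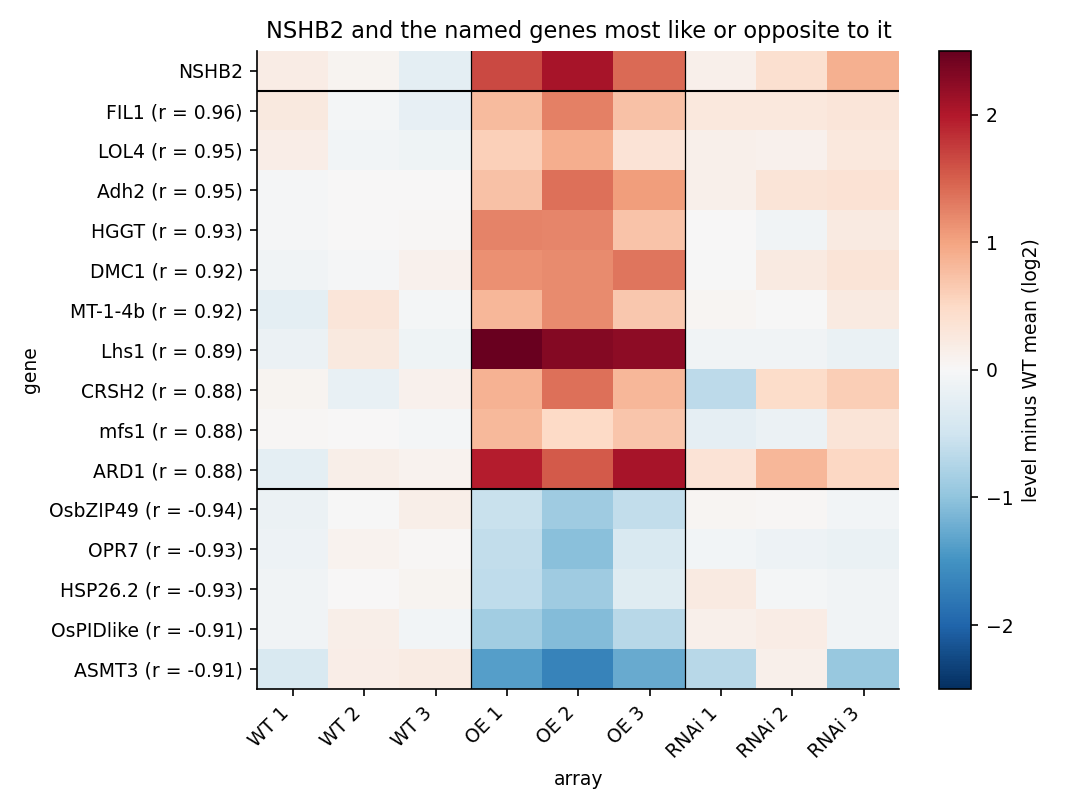
Level minus the WT mean (log2, colour) of NSHB2, the 10 named genes most like it and the 5 most opposite, on each of the 9 arrays, with Pearson's r in brackets. The OE columns are red for NSHB2 and the 10 like genes and blue for the 5 opposite genes, while the RNAi columns stay closer to WT.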

How the data were processed

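Leaf RNA of WT, OE and RNAi seedlings was hybridised to the rice GeneChip. The authors deposited 1 table of log2 expression values for 9 arrays, made by RMA per the labels (background correction, quantile normalisation and probe-set summary). RMA forces the arrays to a common distribution, which removes any shift of the whole transcriptome. The version and annotation are not given in the sources used here, and no scan dates were used.

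Of 57381 probe sets, 187 control and reporter sets were left out. Group means were fitted to all 9 arrays with limma 3.58.1 in R 4.3.3 (eBayes, 6 residual and 3.78 prior degrees of freedom), with Benjamini-Hochberg adjustment over 57194 probe sets and calls at an adjusted p under 0.05, two-sided. P-values measure the spread between pools. Intervals are at 95%. The script was tested on simulated data. The number of arrays limits the precision.

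A probe set was named from the platform table joined to the reference gene table by gene number: 22436 had 1 gene, 95 several and 34663 none. No coordinates are printed because the builds were not matched. The members and the lists were chosen with earlier results of these data known. Named genes were the target, all NSHB probe sets, up to 5 called members per list and comparison or else the 2 of smallest p, the neighbours called, and the 10 most like and 5 most opposite to NSHB2. For the last rule, symbols alone left 1 probe set (LEA19, r = -0.06), so names among synonyms were admitted after the data were seen. Lists were matched by symbol or synonym, and a few matches may be other genes of the same name. Alternatives were median centring, a replicate block, fits to 2 groups, other moderation, a filter on low means, array weights and leaving out each array.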

Additional observations from a re-analysis of the deposited data

How the results depend on the processing

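NSHB2 kept its direction and, for RNAi minus WT, its side of the threshold under all 17 alternatives. Many of these could not move its differences. Fits that change only the spread, the block, the probe sets kept or the third group return the same difference of 2 group means. The ranges of the differences therefore rest on median centring, array weights and dropped arrays of the 2 groups compared. OE minus WT ranged from 1.54 to 1.85, OE minus RNAi from 1.07 to 1.45, and RNAi minus WT from 0.26 to 0.64 with adjusted p from 0.162 to 0.749. The _s_at probe set of NSHB1 ranged from 0.43 to 0.62 in OE minus WT. AOS stayed called in OE minus WT, from -0.90 to -0.74.

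Counts of calls moved more, and the cause was not tested. For OE minus WT the 1680 calls became 731 without moderation of the spread and 3929 with array weights, and 527 to 1939 when single arrays were left out, lowest without WT replicate 3. For RNAi minus WT the 274 calls became 167 with only the 2 groups compared, 69 without moderation and 1269 with array weights, and 118 to 512 without single arrays, lowest without WT replicate 3 and highest without RNAi replicate 1. For OE minus RNAi the 3521 calls became 1805 with only the 2 groups, 1623 without moderation and 6310 with array weights, and 1693 to 4141 without single arrays, lowest without OE replicate 1. Members of the related lists called in OE minus WT, 6 in all, became 3 without moderation and 12 with array weights, and 1 to 7 without single arrays. Those in RNAi minus WT went from 0 to 3 with array weights and stayed at 0 without single arrays. Those in OE minus RNAi, 9 in all, became 15 with trend and robust moderation, 14 with the fit kept to the brighter part of the probe sets (mean level not below the median) and 21 with array weights, and 3 to 11 without single arrays. Neighbours called in OE minus WT went from 2 to 1 with median centring, without moderation and with the filter, and those in OE minus RNAi from 2 to 1 without moderation and with the filter, where both ranged from 1 to 2 without single arrays. The filter leaves out the called MTP4 probe set, so the fall with the filter follows from its absence. Of the 10 genes most like NSHB2, 5 were shared with Spearman's correlation and 7 to 10 when single arrays were left out.

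Some uncalled differences near 0 changed sign. Without single arrays, RNAi minus WT of the NSHB1 _x_at set ranged from -0.061 to 0.052, of NIA1 from -0.11 to 0.013, of NAR2.2 from -0.078 to 0.19 and of GLN2 from -0.031 to 0.024, with 0.011 for GLN2 under array weights. OE minus RNAi of the unique NSHB1 set ranged from -0.057 to 0.23.

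The replicate numbers in the labels were not taken to pair samples: deviations of same-numbered arrays correlated from -0.33 to 0.12 over 9 pairs, against -0.21 to 0.28 over 18 other pairs. With the number as a replicate block, OE minus WT had 937 calls, RNAi minus WT 209 and OE minus RNAi 2455, with 2 list members and 1 neighbour called in OE minus WT.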

Other observations

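The probe sets most like NSHB2 were also sought without asking for a gene name. Of 3196 probe sets with a range of at least 1 on the log2 scale, 44 had Pearson's r with NSHB2 above 0.9 and 57 below -0.9 over the 9 arrays. After FIL1, the next 4 were LOC4324858 (r = 0.96) and 3 probe sets with no listed gene. The unlisted probe set with the largest step read 6.48, 6.61 and 6.01 in WT, 11.93, 12.21 and 11.86 in OE, and 7.95, 7.75 and 7.95 in RNAi, an OE minus WT difference of 5.64. Unlike NSHB2 it was also called higher in RNAi than in WT, by 1.52 (limma adjusted p = 0.00172). The root mean square difference of its WT-centred profile from that of NSHB2 was 2.36.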
